A study of Mus musculus with 20 samples.

Results

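The genes described here make fatty acids and join them into glycerolipids. The 34 members were listed by their place in the pathway: the supply of acetyl-CoA and NADPH (Acly, Acss2, Slc25a1, Me1), the synthesis of palmitate (Acaca, Acacb, Fasn), chain elongation (Elovl1, Elovl2, Elovl3, Elovl4, Elovl5, Elovl6, Elovl7), desaturation (Scd1, Scd2, Fads1, Fads2), acyl-CoA synthesis (Acsl1, Acsl3, Acsl4), glycerolipid assembly (Gpam, Agpat1, Agpat2, Agpat3, Lpin1, Lpin2, Lpin3, Dgat1, Dgat2, Pnpla3) and regulators (Srebf1, Thrsp, Mid1ip1). Of these, 33 were named in the probe table, which held 26159 genes in all, and the level of Acsl1 is not analysed here. Each gene was read by its probe with the highest mean log2 intensity over the 20 arrays. A filter that left out the dimmest 30% of genes kept 30 members among 18311 genes tested.

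Fatty acid synthesis turns surplus carbon into fat. Citrate leaves the mitochondrion and is split into cytosolic acetyl-CoA, which acetyl-CoA carboxylase and fatty acid synthase build into palmitate with NADPH as the reductant. Elongases and desaturases then reshape the chain, and acyltransferases, phosphatidate phosphatases and diacylglycerol acyltransferases attach chains to glycerol to give triglyceride and phospholipid precursors. The transcription factors SREBP-1, encoded by Srebf1, and ChREBP, encoded by Mlxipl, drive these genes in liver in response to insulin and glucose, and both are also made in pancreatic beta cells.

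Islets came from male mice of the strain B6.V-Lep ob/ob, which lack functional leptin and become obese. The groups were 39 weeks of HFD followed by 2 days of CRD (aged_CRD), 39 weeks of HFD (aged_HFD), 18 weeks of HFD followed by 2 days of CRD (young_CRD), and 18 weeks of HFD (young_HFD), with 5 mice and 5 arrays in each. The labels do not spell out the diet abbreviations. The HFD groups that serve as controls carry the same obese genotype, no lean group was part of the comparison, and the age in weeks equals the weeks of HFD in the labels, so age and length of feeding cannot be told apart. Islets were freed with collagenase and picked by hand, and RNA was labelled with Cy3, so every value is an intensity of 1 array. The p-values rest on the spread between arrays within groups, pooled over the 4 groups. That spread holds differences between mice and between arrays together.

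The islet hormones were bright on all arrays. Group means of log2 intensity were 17.89 to 17.94 for Ins2 and 14.32 (aged_CRD) to 15.22 (aged_HFD) for Gcg. For Gcg all aged_CRD arrays (highest 14.89) lay below all aged_HFD arrays (lowest 14.92). Ins2 was at 17.94 on every CRD array (SD 0), the top of the normalized scale. Its level therefore cannot compare islet content between groups. The arrays were divided into 3 sets that no label records, by clustering them on 1320 chemosensory receptor genes. The number of sets was chosen, not estimated. On these genes 2 arrays correlated at 0.925 to 0.979 if they shared a set and at 0.848 to 0.917 if they did not. The sets were made from these same correlations, so the gap between the ranges is not independent support for them. Set A held 4 aged_CRD, 3 aged_HFD, 1 young_CRD and 4 young_HFD arrays, set B held 1 aged_HFD, 4 young_CRD and 1 young_HFD array, and set C held 1 aged_CRD and 1 aged_HFD array. At 18 weeks the diets were thus split unevenly over the sets, so each result is given from a fit without the array set and from a fit that adds it as a term, called the block here. Bulk RNA cannot tell fewer cells of a type from less RNA per cell.

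CRD against HFD at 39 weeks asks what 2 days of the second diet did in aged mice. Srebf1, the gene of the lipogenic transcription factor SREBP-1, was the member that fell, and no member rose. Its log2 intensity was 9.93, 9.82, 9.94, 9.28 and 9.46 on the 5 aged_CRD arrays, against 10.83, 10.20, 10.26, 10.76 and 10.92 on the 5 aged_HFD arrays. All aged_CRD arrays lay below all aged_HFD arrays. The log2 fold change was -0.91 ± 0.24 (SE, n = 5 mice each; limma, Benjamini-Hochberg adjusted p = 0.0208), with a 95% interval of -1.41 to -0.41. With the block it was -0.78 ± 0.19 (limma, adjusted p = 0.00806). Within sets, CRD minus HFD was -0.81 in set A (4 aged_CRD and 3 aged_HFD arrays) and -0.81 in set C (1 array each). The adjusted p rose to 0.161 in set A alone, and it was 0.0543 to 0.0619 when any of 5 arrays was left out (aged_CRD replicates 4 and 5, aged_HFD replicates 1, 4 and 5).

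**Figure D1:**
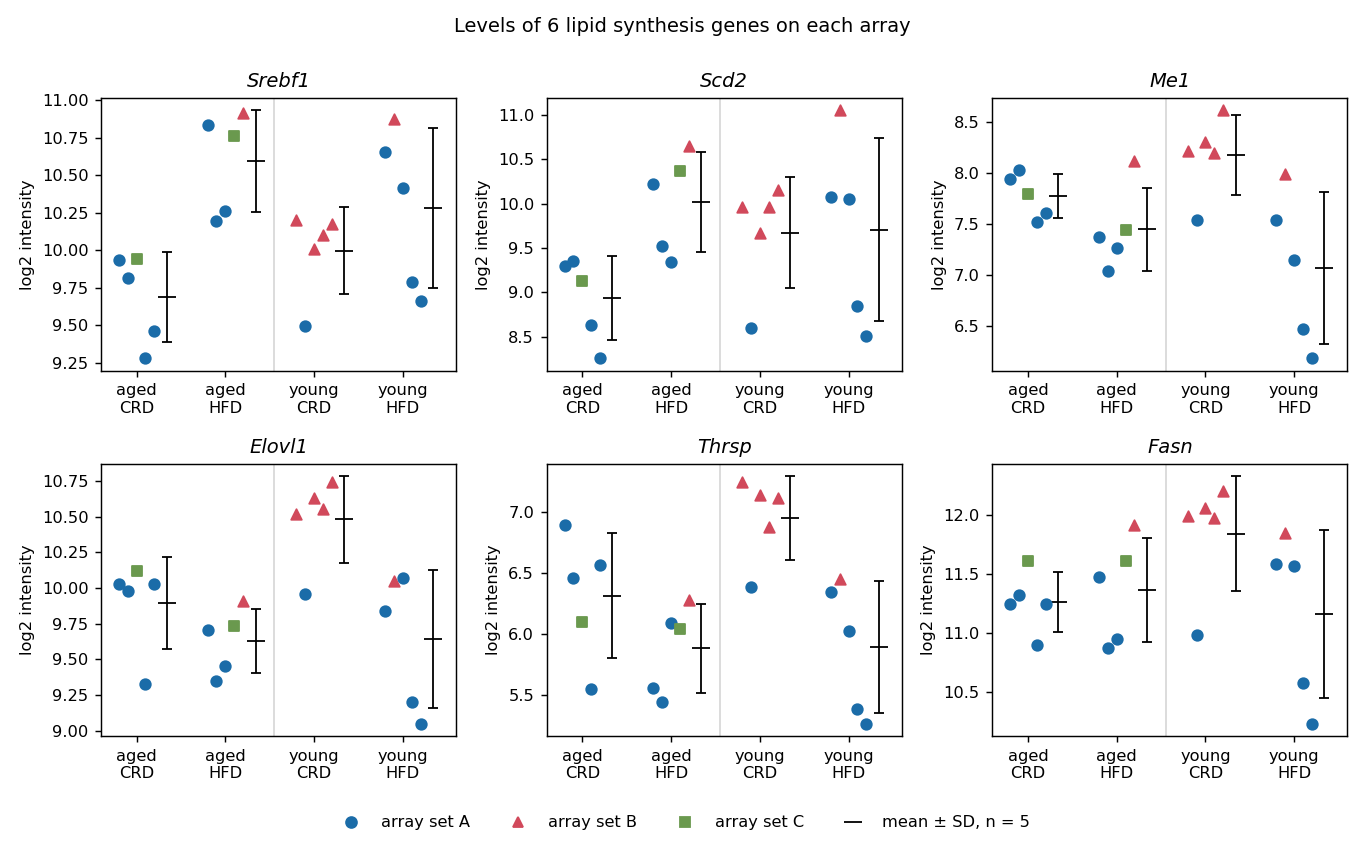
Log2 intensity of Srebf1, Scd2, Me1, Elovl1, Thrsp and Fasn on each of the 20 arrays (vertical axis), by group (horizontal axis), with the marker shape and colour for the array set and black bars for the mean and SD of 5 arrays. The 5 aged_CRD arrays of Srebf1 reach at most 9.94 and lie below the lowest aged_HFD array at 10.20, while the other panels overlap between the diets.

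Because Srebf1 was the member with separated groups, the bases before its starts are shown. RefSeq (GRCm38.p6) gives 3 starts for Srebf1 on the minus strand of chromosome 11, and the sources used here do not say which transcript the probe reads. The 250 bases before each start are written 5′ to 3′ in the sense of the gene. Capitals mark matches, on either strand, to the E-box CACGTG, to the sterol element TCACNCCAC, to the CCAAT box (CCAAT or ATTGG) or to the GC box (GGGCGG or CCGCCC). The windows lie at chr11:60222582-60222831, chr11:60220628-60220877 and chr11:60210472-60210721.
Srebf1 start 1: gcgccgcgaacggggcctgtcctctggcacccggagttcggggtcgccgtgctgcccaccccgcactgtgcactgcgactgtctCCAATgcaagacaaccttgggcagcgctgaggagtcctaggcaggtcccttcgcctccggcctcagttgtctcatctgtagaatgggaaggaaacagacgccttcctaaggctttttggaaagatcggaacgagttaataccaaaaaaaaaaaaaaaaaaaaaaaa
Srebf1 start 2: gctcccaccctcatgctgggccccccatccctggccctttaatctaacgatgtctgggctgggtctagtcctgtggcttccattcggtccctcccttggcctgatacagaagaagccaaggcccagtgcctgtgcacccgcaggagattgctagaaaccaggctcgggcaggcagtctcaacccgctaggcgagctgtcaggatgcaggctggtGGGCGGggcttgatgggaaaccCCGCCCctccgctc
Srebf1 start 3: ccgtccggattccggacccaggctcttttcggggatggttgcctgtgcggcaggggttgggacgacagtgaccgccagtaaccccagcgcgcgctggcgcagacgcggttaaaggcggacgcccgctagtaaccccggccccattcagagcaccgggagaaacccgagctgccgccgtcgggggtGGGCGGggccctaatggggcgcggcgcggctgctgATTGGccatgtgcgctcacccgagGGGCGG
The first window held 1 CCAAT box, the second 2 GC boxes, and the third 1 CCAAT box and 2 GC boxes. No match to the other motifs was found in these letters. Such matches describe the letters and are not evidence of binding.

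In all, 1 of 30 members passed the test at 39 weeks, against a background of 8.34% of all genes tested (4.84% lower and 3.50% higher). With the block the count was again 1 lower and 0 higher, against 15.3% of all genes (7.79% lower and 7.49% higher). Srebf1 was also the only member whose diets did not overlap, where 12.7% of all genes showed no overlap (8.82% lower and 3.88% higher in CRD). The members' count was thus below the background share in both fits, but whether a count of 1 in 30 differs from that share was not tested. The median log2 fold change of the members was -0.09, against 0.02 for all genes, and with the block -0.12 against 0.01. Scd2, the stearoyl-CoA desaturase abundant in brain, had the largest negative value, -1.09 ± 0.41 (adjusted p = 0.119), with 8.93 ± 0.47 in aged_CRD and 10.02 ± 0.56 in aged_HFD (SD, n = 5 each). An unadjusted p under 0.05 was reached by 4 members, and by 6 with the block. The other members missed the threshold at values of -0.59 (Lpin1) to 0.43 (Thrsp).

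Some marker genes of other cells moved with the groups. Of 14 acinar genes 13 were on the array and 11 passed the filter, with the defining factors Rbpjl and Ptf1a dim. Bhlha15 passed and had higher means in CRD at 39 weeks (8.79 against 8.06) and at 18 weeks (9.31 against 8.39). The other acinar genes that passed all had lower means in aged_CRD than in aged_HFD, such as Cel (8.70 against 11.33) and Try4 (11.18 against 13.57). Of the 11, 1 rose and 2 fell in CRD at 39 weeks and 9 rose at 18 weeks, and with the block 1 rose and 3 fell at 39 weeks and 1 rose at 18 weeks. Sums are on the linear scale over all genes of a list on the array, dim ones included. Bright genes thus weigh most. The acinar sum was 7878 to 45230 in aged_CRD, 43637 to 76857 in aged_HFD, 6622 to 49438 in young_CRD and 1356 to 43825 in young_HFD. Of 10 adipocyte genes 9 were on the array and 8 passed, and the defining marker Adipoq was dim, with group means of 0.78 to 2.06. The adipocyte sum was 1107 to 1221 in aged_CRD, 1685 to 2925 in aged_HFD, 1075 to 1575 in young_CRD and 1240 to 2616 in young_HFD. The 39-week diets did not overlap in this sum, and Lpl, Fabp4 and Pparg, 3 of the 8 genes, fell there in both fits. Lpl was the brightest of the list (mean 8.34 in aged_CRD, 9.98 in aged_HFD), while Cidec, Plin1 and Retn had higher means in aged_CRD. The diets were also apart at 39 weeks in the sum of 5 duct genes, 10626 to 12341 in aged_CRD and 5476 to 9775 in aged_HFD. The sum of 6 stellate genes was apart too, 991 to 1600 in aged_CRD and 1680 to 2995 in aged_HFD. The brightest genes were Krt7 in duct (mean 13.40 in aged_CRD, 12.74 in aged_HFD) and Acta2 in stellate (9.94 and 10.69). Sox9 of the duct list was at 5.21 and 5.18, and Krt19, Cftr and Col3a1 were too dim to test. Of the 3 duct genes tested 0 were called without the block, 1 had an unadjusted p under 0.05, and Krt7 rose with the block. Of the stellate genes Dcn fell in both fits and Acta2 with the block. The sum of 5 endothelial genes was 5495 to 8152 in aged_CRD, 7524 to 11327 in aged_HFD, 6284 to 7752 in young_CRD and 7537 to 11591 in young_HFD. The part of these cells in the result for Srebf1 and the other members was not tested.

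CRD against HFD at 18 weeks asks the same question in young mice. Without the block 6 members passed, all higher in young_CRD, against a background of 24.9% of all genes (17.0% higher and 7.89% lower). They were Me1 (1.11 ± 0.29, adjusted p = 0.00982), Thrsp (1.06 ± 0.28, adjusted p = 0.00925), Lpin2 (1.00 ± 0.29, adjusted p = 0.0185), Slc25a1 (0.84 ± 0.28, adjusted p = 0.0373), Elovl1 (0.84 ± 0.22, adjusted p = 0.0111) and Dgat1 (0.68 ± 0.23, adjusted p = 0.0405). They encode a cytosolic malic enzyme that yields NADPH, a lipogenic regulator, a phosphatidate phosphatase, the mitochondrial citrate carrier, an elongase of very long chains and an enzyme of the last step to triglyceride. With the block 0 members passed in either direction, against 12.9% of all genes (6.89% higher and 5.97% lower), while 6 members had an unadjusted p under 0.05. The blocked values of the 6 genes were 0.33 (Dgat1) to 0.68 (Thrsp), with adjusted p of 0.127 to 0.468. No member had diets without overlap at 18 weeks, against 9.60% of all genes (6.60% higher and 3.00% lower).

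The members' median log2 fold change at 18 weeks was 0.32 without the block, against 0.04 for all genes, and 0.00 with it, against 0.01. Within sets the median was 0.01 in set A, where 1 young_CRD array stood against 4 young_HFD arrays, and -0.14 in set B, where 4 stood against 1. The count of members called higher was 3 to 12 when 1 array was left out, and 0 to 2 were called lower. It was 12 higher and 2 lower without young_HFD replicate 2, the only set B array of its group, where 45.9% of all genes were called. It was 10 higher and 2 lower without young_CRD replicate 2, the only set A array of its group, where 39.8% of all genes were called. The log2 intensity of Srebf1 at 18 weeks was 10.20, 9.49, 10.01, 10.10 and 10.17 on the young_CRD arrays, against 10.65, 10.88, 10.41, 9.79 and 9.66 on the young_HFD arrays. The groups overlapped, and young_CRD replicate 2, at 9.49, was apart from the other young_CRD arrays at 10.01 to 10.20. Its log2 fold change was -0.28 ± 0.24 without the block (adjusted p = 0.371) and -0.66 ± 0.22 with it (adjusted p = 0.0563). Its within-set differences were -0.64 in set A and -0.76 in set B.

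**Figure D2:**
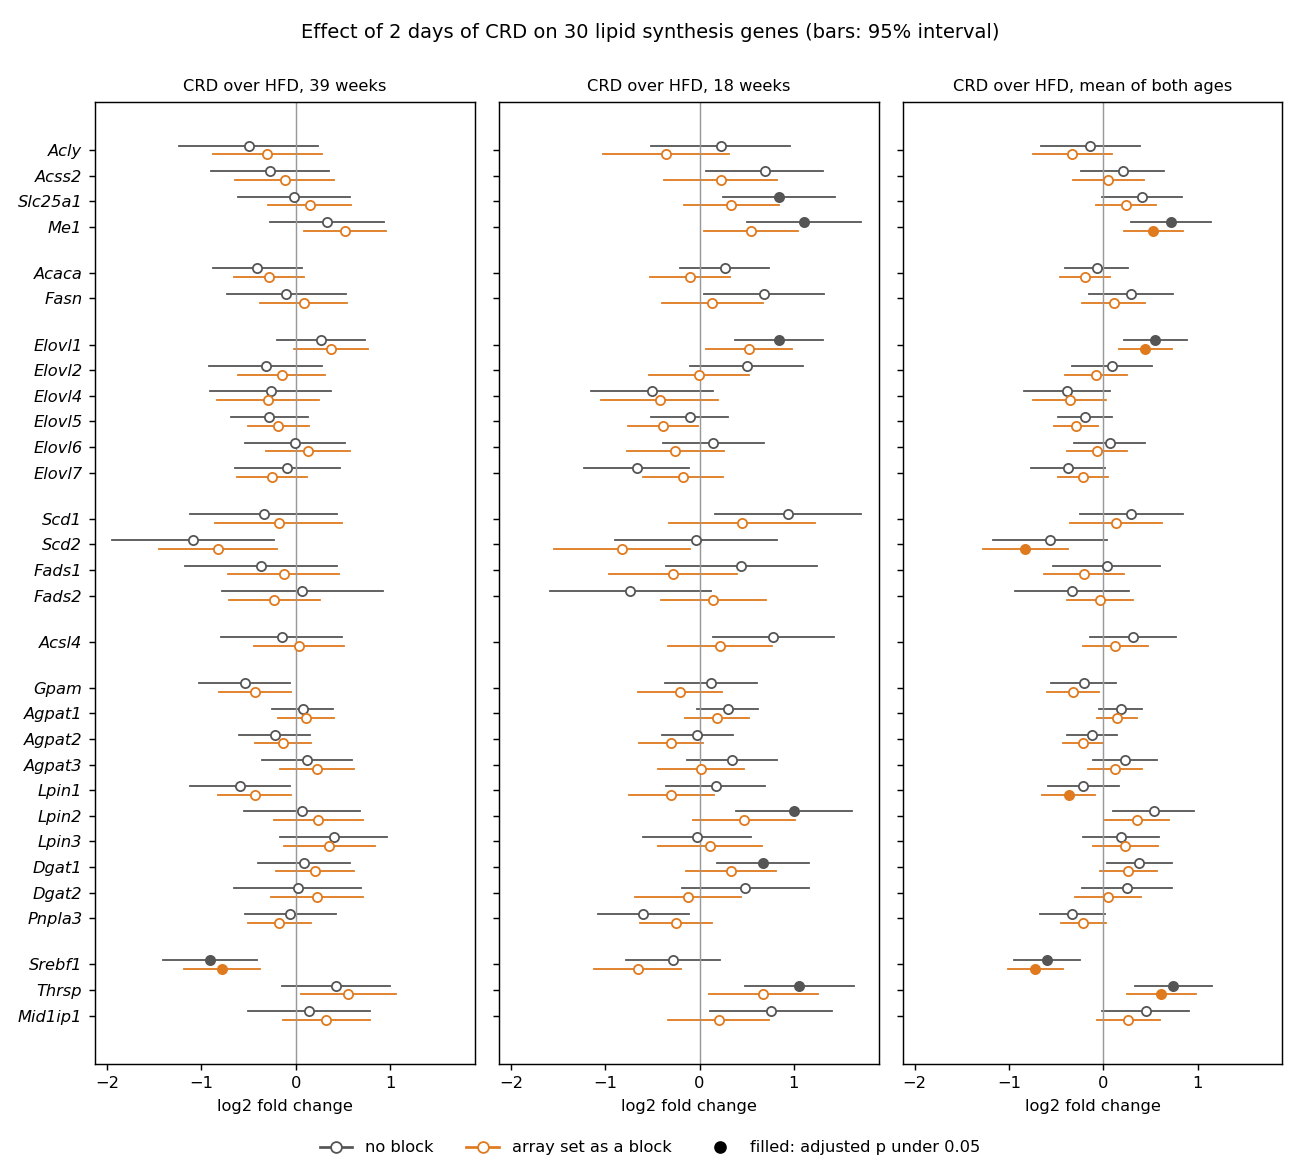
Log2 fold change, CRD over HFD, of the 30 members tested (horizontal axis), ordered by role, at 39 weeks, at 18 weeks and as the mean of both, with 95% intervals, grey without and orange with the block, and filled markers where the adjusted p is under 0.05. At 18 weeks the 6 filled grey markers have open orange counterparts, while Srebf1 is filled in both fits at 39 weeks and in the mean.

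**Figure D3:**
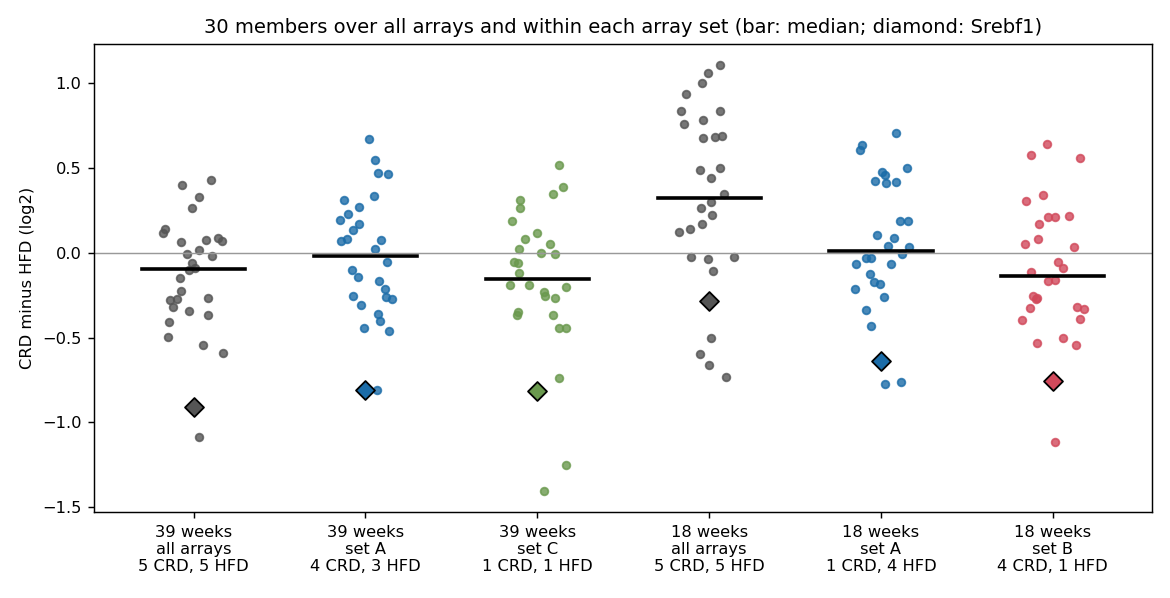
CRD minus HFD of the mean log2 intensity (vertical axis) for each of the 30 members, over all arrays of an age and within each array set, with the members' median as a bar and Srebf1 as a diamond. The median over all arrays at 18 weeks is 0.32 but 0.01 within set A and -0.14 within set B, while Srebf1 lies below 0 in every column.

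The mean of the CRD effects at 39 and 18 weeks, a contrast added after the data were seen, uses all 20 arrays for the diet. Without the block Me1, Elovl1 and Thrsp rose and Srebf1 fell, 4 of 30 members against a background of 21.6% of all genes (12.6% higher and 8.99% lower). With the block the same 4 genes passed in the same directions and Scd2 and Lpin1 fell too, 6 of 30 against 28.1% of all genes (13.5% higher and 14.6% lower). The members were thus called no more often than genes in general, with a median of 0.14 without the block and 0.01 with it, against 0.00 and 0.02 for all genes. At 39 weeks alone Me1, Elovl1 and Thrsp passed in neither fit. Their limma adjusted p was 0.424 to 0.594 without and 0.105 to 0.214 with the block. At 18 weeks alone they passed only without the block. In set A alone 0 members passed, and the adjusted p of the 4 genes was 0.0992 (Srebf1) to 0.428 (Elovl1).

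Among the genes of substrate supply, Me1 was read at 7.94, 8.03, 7.79, 7.52 and 7.61 in aged_CRD, against 7.37, 7.04, 7.27, 7.44 and 8.11 in aged_HFD. It was read at 8.22, 7.54, 8.30, 8.20 and 8.61 in young_CRD, against 7.54, 7.99, 7.15, 6.47 and 6.19 in young_HFD. The diets overlapped at both ages. The highest aged_HFD array, of set B, lay above every aged_CRD array, and the highest young_HFD array, also of set B, lay within the young_CRD range. The mean effect was 0.72 ± 0.21 (limma, adjusted p = 0.0144) and 0.53 ± 0.15 with the block (adjusted p = 0.0111). All 4 within-set differences were above 0, at 0.55 and 0.35 in sets A and C at 39 weeks and 0.71 and 0.34 in sets A and B at 18 weeks. Acly, which splits citrate into acetyl-CoA, had a blocked mean effect of -0.33 (95% interval -0.75 to 0.09). Acss2, which makes acetyl-CoA from acetate, was at 0.05 ± 0.18 and Slc25a1 at 0.24 ± 0.15, and neither passed.

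Of the enzymes listed for the synthesis of palmitate, Acaca and Fasn did not pass in any contrast, and Acacb was too dim to test. Acaca, which makes malonyl-CoA, had a blocked mean effect of -0.20 (95% interval -0.46 to 0.07). Fasn, which condenses malonyl-CoA into palmitate, had 0.11 (95% interval -0.23 to 0.44). Its group means were 11.27 ± 0.26 in aged_CRD, 11.37 ± 0.44 in aged_HFD, 11.84 ± 0.49 in young_CRD and 11.16 ± 0.71 in young_HFD (SD, n = 5 each). At 18 weeks Fasn was 0.68 ± 0.30 higher without the block (adjusted p = 0.0983) and 0.14 ± 0.26 with it, and its differences within sets A and B were -0.01 and 0.21.

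Of the elongases, Elovl1 rose in the mean of the CRD effects. It was read at 10.03, 9.98, 10.12, 9.33 and 10.03 in aged_CRD, against 9.71, 9.35, 9.46, 9.73 and 9.91 in aged_HFD. It was read at 10.52, 9.96, 10.63, 10.55 and 10.75 in young_CRD, against 9.84, 10.05, 10.07, 9.20 and 9.05 in young_HFD. A single low array in each CRD group, aged_CRD replicate 4 and young_CRD replicate 2, overlapped with HFD, and the other 4 arrays of each CRD group lay above all HFD arrays of their age. The mean effect was 0.55 ± 0.16 (adjusted p = 0.015) and 0.45 ± 0.14 with the block (adjusted p = 0.0175). The other 5 elongases tested had blocked mean effects of -0.36 (Elovl4) to -0.07 (Elovl6), with Elovl5, an elongase of polyunsaturated chains, at -0.28 ± 0.11 (adjusted p = 0.0645).

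Among desaturases, Scd2 fell with the block by 0.82 ± 0.22 (adjusted p = 0.00646), and its value without the block was -0.56 ± 0.29 (adjusted p = 0.194). Its differences were -0.81 and -1.25 in sets A and C at 39 weeks and -0.77 and -1.11 in sets A and B at 18 weeks, so all 4 were below 0. At 18 weeks its levels ran between 8.60 and 10.16 in young_CRD and between 8.51 and 11.05 in young_HFD. Scd1, the desaturase best known from liver and fat, was at 0.14 ± 0.23 in the blocked mean effect, and it was the dimmest member that passed the filter. Fads1 and Fads2, the desaturases of polyunsaturated chains, were at -0.20 ± 0.20 and -0.04 ± 0.17. Acsl4, which activates arachidonate, was at 0.13 ± 0.16.

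In glycerolipid assembly 1 of 10 genes passed in the blocked mean effect, where 28.1% of all genes did. Lpin1, a phosphatidate phosphatase that makes diacylglycerol, fell by 0.37 ± 0.14 (adjusted p = 0.0487), and it was -0.21 ± 0.18 without the block (adjusted p = 0.465). Its paralogs were at 0.36 ± 0.16 (Lpin2, adjusted p = 0.118) and 0.23 ± 0.17 (Lpin3). Gpam, which puts the first acyl chain on glycerol phosphate, was at -0.32 ± 0.13 (adjusted p = 0.084), and Agpat1, Agpat2 and Agpat3, which add the second, were at -0.22 to 0.15. Dgat1 and Dgat2, which complete triglyceride, were at 0.27 ± 0.14 and 0.05 ± 0.17, and Pnpla3, a lipid droplet protein, at -0.21 ± 0.11.

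Of the 3 regulators Srebf1 fell and Thrsp rose in the mean of the CRD effects. Srebf1 had a mean effect of -0.59 ± 0.17 (adjusted p = 0.0142) and of -0.72 ± 0.14 with the block (adjusted p = 0.000495). Thrsp, known as Spot 14 and induced by thyroid hormone and carbohydrate in liver, was read at 6.90, 6.46, 6.10, 5.55 and 6.56 in aged_CRD, against 5.56, 5.44, 6.09, 6.05 and 6.28 in aged_HFD. It was read at 7.24, 6.39, 7.14, 6.88 and 7.12 in young_CRD, against 6.34, 6.45, 6.02, 5.39 and 5.27 in young_HFD. The diets overlapped at both ages, through aged_CRD replicates 3 and 4 and through young_CRD replicate 2. The mean effect was 0.74 ± 0.19 (adjusted p = 0.00807) and 0.62 ± 0.17 with the block (adjusted p = 0.0109). Its differences within sets were 0.67 and 0.05 in sets A and C at 39 weeks and 0.63 and 0.64 in sets A and B at 18 weeks. Mid1ip1, a paralog of Thrsp that promotes the assembly of acetyl-CoA carboxylase into polymers, was at 0.26 ± 0.16 with the block and did not pass.

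The windows before the starts of the 3 genes that rose in the mean of the CRD effects are given in the same way. They are to be set beside those of Srebf1. For Me1 (minus strand, chr9:86695915-86696164) the farther upstream of its starts is shown. The Elovl1 window is at chr4:118427843-118428092 on the plus strand and the Thrsp window at chr7:97417551-97417800 on the minus strand.
Me1: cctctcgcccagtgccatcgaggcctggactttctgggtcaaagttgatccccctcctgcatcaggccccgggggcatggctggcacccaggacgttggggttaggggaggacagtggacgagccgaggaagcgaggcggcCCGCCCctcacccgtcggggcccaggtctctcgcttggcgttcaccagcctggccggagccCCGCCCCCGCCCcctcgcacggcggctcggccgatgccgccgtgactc
Elovl1: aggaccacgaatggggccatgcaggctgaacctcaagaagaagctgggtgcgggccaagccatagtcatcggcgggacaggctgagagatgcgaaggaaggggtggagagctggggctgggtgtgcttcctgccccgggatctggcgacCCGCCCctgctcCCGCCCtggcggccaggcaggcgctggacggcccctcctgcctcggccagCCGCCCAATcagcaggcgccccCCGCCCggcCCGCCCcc
Thrsp: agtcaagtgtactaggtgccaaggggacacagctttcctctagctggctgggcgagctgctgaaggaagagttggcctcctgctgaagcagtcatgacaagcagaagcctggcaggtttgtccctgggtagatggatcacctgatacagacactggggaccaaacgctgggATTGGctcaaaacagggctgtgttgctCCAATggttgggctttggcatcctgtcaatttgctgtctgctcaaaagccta
Me1 held 3 GC boxes, Elovl1 held 5 GC boxes and 1 CCAAT box that overlaps a GC box, and Thrsp held 2 CCAAT boxes and no GC box. No E-box and no sterol element of these letters was found in the 3 windows. Windows were found for 28 of the 34 members, 39 in all. A GC box stood in 24 of these 39 windows (61.5%), against 32.7% of all 32851 windows in the table. A CCAAT box stood in 16 (41.0%, against 33.9% of all), an E-box in 3 (7.69%, against 6.02%) and the sterol element in 1, that of Acsl1 (2.56%, against 1.05%). The E-boxes were before Elovl5, Lpin2 and Slc25a1. Windows of the same gene were counted separately, and the member windows with a GC box belonged to 20 genes. The shares of all windows were not limited to genes tested here, and no difference in share was tested.

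The difference of the CRD effects, 39 minus 18 weeks, asks whether the diet acted differently with age. No member passed without or with the block, and 0% of all 18311 genes did. Without the block 7 members had an unadjusted p under 0.05, and with it 0 did. The median over members was -0.63, against -0.16 for all genes, and with the block -0.07, against -0.03. For Srebf1 the difference was -0.62 ± 0.34 without and -0.13 ± 0.31 with the block. Without young_HFD replicate 2, 4 of 30 members were called lower in this contrast, where 21.2% of all genes were called in either direction.

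In the age comparisons no member passed. For 39 against 18 weeks on HFD, 0 of 30 members were called, against 0.0928% of all genes (0.0710% higher and 0.0218% lower), and with the block 0 against 0.912% (0.164% higher and 0.748% lower). An unadjusted p under 0.05 was reached by 1 member in each fit. The value farthest from 0 was that of Dgat2, at 0.78 ± 0.32 (adjusted p = 0.597) and 0.81 ± 0.23 with the block (adjusted p = 0.116), with 6.44 ± 0.45 in aged_HFD and 5.66 ± 0.76 in young_HFD (SD, n = 5 each). After CRD, 0 of 30 members were called, against 0.0273% of all genes, and with the block 0 against 0%. An unadjusted p under 0.05 was reached by 5 members without and 1 with the block. Dgat2 was 1.16 ± 0.30 higher in aged_CRD than in young_CRD with the block and 0.31 ± 0.32 without it, and neither passed. Only set A held arrays of both groups, with 1 young_CRD array. Dgat2 was at 5.36 on that array and at 6.12 to 6.71 on the 4 young_CRD arrays of set B, so the blocked value leans on 1 array. No member had ages without overlap on either diet, where 1.05% of all genes did on HFD (0.251% higher and 0.797% lower) and 4.57% after CRD (0.885% higher and 3.68% lower). Leaving out young_CRD replicate 2 gave 6 of 30 members lower and 1 higher in the comparison after CRD, where 35.3% of all genes were called. Acinar markers moved beside them: 7 of 11 rose in aged_HFD over young_HFD, and 9 with the block. Their part in these values was not tested. Each group serves in a diet and in an age comparison, so the comparisons share arrays.

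**Figure D4:**
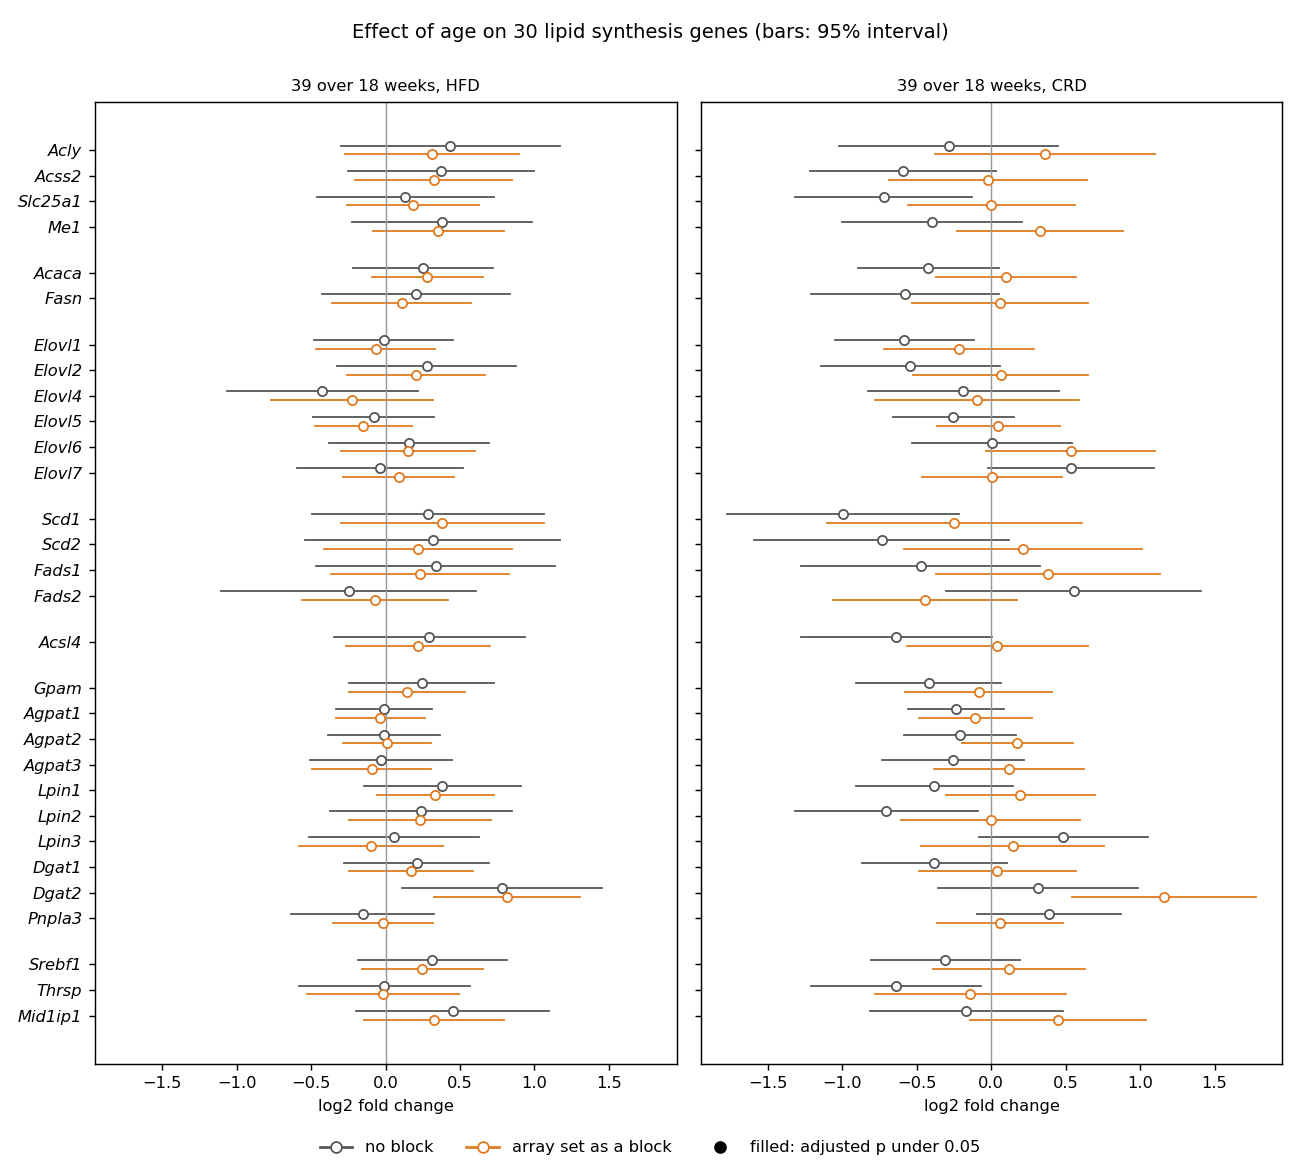
Log2 fold change, 39 over 18 weeks, of the 30 members tested (horizontal axis), on HFD and after CRD, with 95% intervals, grey without and orange with the block. No marker is filled, and Dgat2 has the value farthest above 0 with the block in both panels (0.81 and 1.16). After CRD, only set A holds arrays of both ages, with 1 young_CRD array.

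The other genes of lipid synthesis were listed by pathway place, 87 in all, of which 76 were tested. In the mean of the CRD effects 23 rose and 11 fell without the block and 21 rose and 15 fell with it, against the same backgrounds of 12.6% and 8.99%, and of 13.5% and 14.6%. Of 14 upstream regulators, 2 rose and 7 fell with the block. Mlxipl, the gene of ChREBP, fell by 1.75 ± 0.28 at 39 weeks (adjusted p = 0.000311) and had -1.59 ± 0.21 with the block. Its differences within sets were -1.58 and -1.71 in sets A and C at 39 weeks and -1.85 and -1.64 in sets A and B at 18 weeks. Ppargc1b, a coactivator that works with SREBP in mouse liver, fell by 1.10 ± 0.25 at 39 weeks (adjusted p = 0.00787) and had -0.97 ± 0.20 with the block.

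Among the enzymes, Agpat5, an acyltransferase, rose in the mean effect by 1.35 ± 0.18 and with the block by 1.19 ± 0.13 (adjusted p = 1.29e-06). Crls1, the cardiolipin synthase, rose by 1.25 ± 0.14 and with the block by 1.13 ± 0.10. Cds2, which makes CDP-diacylglycerol for the acidic phospholipids, had -1.29 ± 0.34 at 39 weeks (adjusted p = 0.0191) and fell with the block too, at -1.10 ± 0.26 (adjusted p = 0.00687). Me3, the mitochondrial NADP-dependent malic enzyme, rose at 18 weeks by 1.78 ± 0.30 and with the block by 1.34 ± 0.29 (adjusted p = 0.00429). Tecr, the reductase of the last step of each elongation round, rose at 18 weeks by 1.31 ± 0.27 and with the block by 0.85 ± 0.24 (adjusted p = 0.0208). The blocked mean effect called 13.5% of all genes higher and 14.6% lower. By list, it had 4 of 9 genes of the elongation cycle higher and 1 lower, 3 of 6 genes of NADPH and glycerol supply higher, 3 of 9 of other acyl-CoA and mitochondrial synthesis higher, 2 of 7 of other glycerolipid assembly higher and 1 lower, 5 of 21 of phospholipid branches higher and 5 lower, and 2 of 10 of lipid droplets and lipolysis higher and 1 lower. No gene of these lists was called in an age comparison or in the difference of the CRD effects. An unadjusted p under 0.05 was reached there by 5 of the 76 on HFD, 21 after CRD and 21 in the difference, and with the block by 10, 1 and 1.

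**Figure D5:**
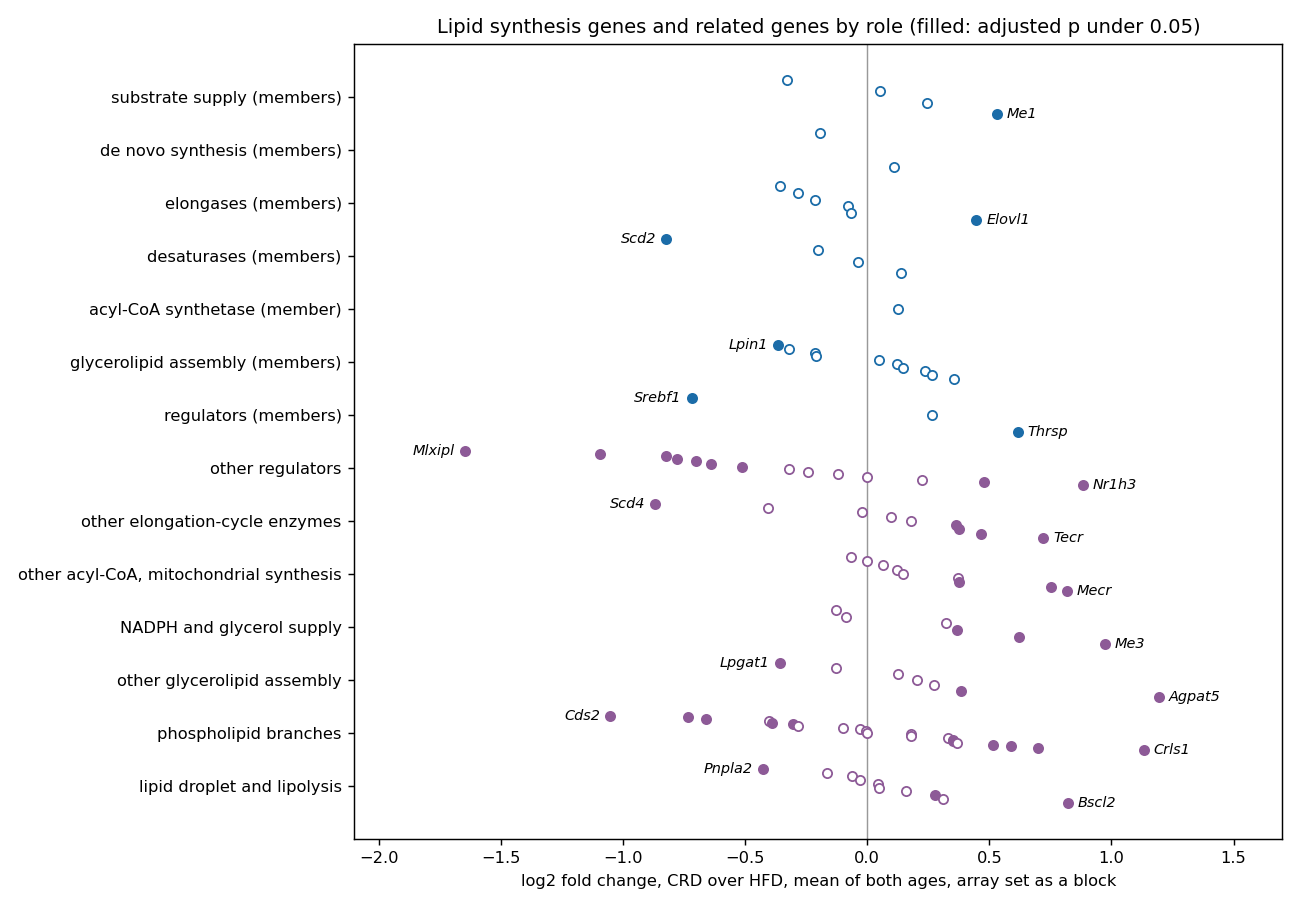
Mean of the CRD effects (log2 fold change, CRD over HFD, with the block, horizontal axis) for the 30 members and the 76 related genes, by role (vertical axis), with filled points where the adjusted p is under 0.05 and names at the called extremes. Mlxipl, at -1.65, lies farthest below 0, Agpat5, at 1.19, farthest above, and Acaca and Fasn lie at -0.20 and 0.11.

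Of the members, 3 had further probes, and 3 were too dim to test. The probes of Gpam were all lower in aged_CRD than in aged_HFD, at -0.54 (the probe used), -0.72 and -0.57, but at 18 weeks they read 0.12, -0.72 and 0.45. The probes of Lpin3 read 0.40 (used) and 0.02 at 39 weeks and -0.03 and 0.68 at 18 weeks, and those of Elovl5 were alike for the diet. The members left out were Acacb, the mitochondrial acetyl-CoA carboxylase (mean log2 intensity 4.24), Acsl3 (4.51) and Elovl3 (0.90), below the filter at 4.83. Scd1 (5.26) and Dgat2 (6.18) were the members just inside it.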

How the data were processed

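Islet RNA of 20 mice in 4 groups of 5 was measured on 1-colour Agilent arrays. Per the submitters' processing notes, the image software was Agilent Feature Extraction 11. The deposited intensity table held 59448 probes on a linear scale, and all 20 columns had identical sorted values (median 36.4), which shows quantile normalization by the authors ahead of the deposit. Background correction, detection flags and which array had which labelling primer were not stated by the sources, and the number of arrays limits the precision.

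Intensities were used as log2. Of the probes, 30010 had 1 gene symbol and 29438 had none. The dimmest 30% of the 26159 genes were left out, at a log2 intensity of 4.83. The model was fitted with limma 3.58.1 (lmFit, then eBayes; R 4.3.3) to 18311 genes in 4 groups, with Benjamini-Hochberg adjustment over all of them and a threshold of 0.05, and again with the array set as an additive block. Array sets came from average-linkage clustering on 1320 chemosensory receptor genes. The fit was tested on simulated data. The members, the gene lists and the array sets were chosen with earlier results of these data known.

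All members are named. Values on every array are given for members called in the same direction without and with the block in at least 1 contrast, and of the related genes up to 4 called with the largest change per contrast are named. Alternatives were other filters, an offset of 16, the mean over probes, another variance model, fewer groups in the fit, array set A alone, the replicate number as a block, and leaving out each array. Promoter windows are from the RefSeq table of GRCm38.p6, matched by symbol.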

Additional observations from a re-analysis of the deposited data

Results flagged for a closer look

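In 12 of 120 groups of 5 arrays (30 members in 4 groups), 1 array stood apart from the other 4 by a gap above Dixon's critical value for its group. Chance gives about 1 in 20 such groups. Of the 12, 8 were young_CRD replicate 2, the only array of set A in its group. It was low for Acss2 (7.35, the others 7.79 to 7.93), Fasn (10.98, the others 11.98 to 12.21), Fads1 (9.49, the others 10.37 to 10.71), Acsl4 (7.60, the others 8.31 to 8.52), Agpat3 (10.20, the others 10.62 to 10.77) and Srebf1 (9.49, the others 10.01 to 10.20). It was high for Elovl7 (9.63, the others 8.56 to 8.77) and Lpin3 (6.63, the others 5.96 to 6.07). In aged_HFD, replicate 5, the only set B array of its group, was high for Acaca (9.24, the others 8.56 to 8.70). In aged_CRD, replicate 4, which shares set A with 3 other arrays of its group, was low for Elovl1 (9.33, the others 9.98 to 10.12), Agpat1 (8.70, the others 9.11 to 9.25) and Dgat1 (8.21, the others 8.75 to 8.88).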

How the results depend on the processing

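The number of members called moved most at 18 weeks. Of the 6 called higher in CRD there, 0 were called with the array set as a block, 0 in array set A alone and 1 with only the 2 groups in the fit. Leaving out 1 array gave 3 to 12 higher (12 without young_HFD replicate 2, where 45.9% of all genes were called, 10 without young_CRD replicate 2, where 39.8% were, and 3 without young_HFD replicate 4 or 5 or young_CRD replicate 3 or 5) and 0 to 2 lower. At 39 weeks the 1 member lower became 0 in set A alone and 2 with only the 2 groups in the fit, and leaving out 1 array gave 0 to 1 lower and 0 to 0 higher. The mean of the CRD effects had 3 higher and 1 lower, against 0 higher and 0 lower in set A alone and 3 lower with the block, and 3 to 7 higher and 1 to 2 lower when 1 array was left out (7 without young_HFD replicate 2, where 28.6% of all genes were called). For 39 against 18 weeks after CRD, 4 members were lower with only the 2 groups in the fit, and leaving out 1 array gave 0 to 6 lower and 0 to 1 higher (6 and 1 without young_CRD replicate 2, with 35.3% of all genes called). On HFD the count was 0 to 0 in both directions, and in the difference of the CRD effects 0 higher and 0 to 4 lower (4 without young_HFD replicate 2, with 21.2% of all genes called). In set A alone, the 18-week CRD arm is 1 array, assumed to vary like the other groups. The causes were not tested.

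Srebf1 at 39 weeks was -0.91 to -0.78 over 9 alternatives, with adjusted p of 0.00806 to 0.161, and -1.01 to -0.80 when 1 array was left out. Me1, Elovl1, Thrsp and Srebf1 kept their direction in the mean of the CRD effects under all alternatives run and missed the threshold in set A alone. With the replicate block, the counts of members called stayed the same within 1.5 times, and at 18 weeks Slc25a1 (0.84, adjusted p = 0.0591) and Dgat1 (0.68, adjusted p = 0.0666) missed the threshold. Replicate numbers gave no sign of pairing: deviations of the 30 pairs with the same number correlated at a median of -0.07, with 10 over 0.1. The 120 pairs with other numbers had a median of 0.01, with 51 over 0.1. The array set was not removed from these deviations. The sample titles carry a further number, and pairing by it was not tested. The number of arrays and the unknown background level limit what dim members can show.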
